A study of Rattus norvegicus with 11 samples.

Results

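The cytokines of the interleukin-6 family, their receptor chains and the transcription factor STAT3 were followed in RNA of rat dorsal root ganglia, the clusters of sensory neuron cell bodies beside the spinal cord. The genes are the ligands Il6, Lif and Cntf, the receptor chains Il6r, Il6st, Lifr, Osmr and Cntfr, the transcription factor gene Stat3 and the feedback inhibitor gene Socs3. They were taken from the deposited table by gene symbol, and all 10 were present among its 16811 genes. A gene was tested where 3 or more libraries reached a value of 10, which held for 9 of them and for 12085 genes in total. Cntfr was at 0 in every library.

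The 11 libraries came from Sprague-Dawley rats in 3 groups. Ganglia of the group SNL plus UNC0638 (n = 3) were from rats given UNC0638 after a spinal nerve ligation, those of the group SNL (n = 4) from rats with the ligation alone, and those of the group Sham (n = 4) are labelled as controls. UNC0638 inhibits G9a and GLP, enzymes that methylate histone H3, and spinal nerve ligation is a model of neuropathic pain. Both ligated groups were from the left side and Sham from the right, so that side and ligation cannot be told apart, and no group had UNC0638 without ligation. The sources used here give no sex, age, dose or time after surgery. The labels do not say that libraries of a group were separate animals, and p-values then measure only the spread between these libraries.

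Cytokines of this family signal through receptors that share the chain gp130, encoded by Il6st. Interleukin-6 binds its own chain Il6r, LIF binds Lifr, oncostatin M binds Osmr or Lifr, and CNTF binds Cntfr together with Lifr. The bound receptors activate JAK kinases, which phosphorylate STAT3, and the STAT3 target gene Socs3 encodes a protein that blocks gp130 in return. In the ganglion the pathway is known for its activation after axon injury, and CNTF is known as a product of Schwann cells. RNA levels do not show phosphorylation of STAT3.

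Values are the authors' counts per gene after scaling by library, written here as scaled counts. Library totals were 9450045 to 11347920, from an estimated 6127897 to 24367736 reads. Fold changes are log2 differences of scaled count + 1 from limma, fitted to all 11 libraries, and a gene was called at a Benjamini-Hochberg adjusted p under 0.05 over all 12085 genes. Some libraries stood apart. SNL plus UNC0638 replicate 1 held 69009 scaled counts of 7 skeletal muscle genes, against 207 to 498 in the other libraries. Its sensory neuron markers summed highest in its group (122220, against 87360 and 72344). Its fibroblast markers (25970, against 55676 and 46643) and macrophage markers (3195, against 4750 and 4635) summed lowest. The deviations of Sham replicate 3 and SNL replicate 3 from their group means were correlated (r = 0.431 across genes, which are not independent replicates). Those of SNL replicate 3 and SNL plus UNC0638 replicate 1 were correlated to a like degree (r = 0.429). Lbp, an acute phase gene singled out after its values were seen, stood at 238 in Sham replicate 3 against 4.17 to 12.5 in the other Sham libraries, and at 146 in SNL replicate 3 against 22.6 to 30.01 in the other SNL libraries. Calls of the 9 tested genes that change without one of these libraries are given with that value. The 6 sensory neuron markers summed to at least 72344 scaled counts in every library.

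In SNL against Sham, 7 of the 9 tested family genes rose and none fell, where 48.2% of all genes tested were called, 24.8% higher. Il6, Lif, Socs3 and Il6r showed the largest log2 fold changes of the 9, Osmr, Lifr and Il6st rose by less than 2-fold, and Stat3 and Cntf were not called. Their median log2 fold change was 0.81, beside -0.0033 over all genes. In SNL plus UNC0638 against SNL, only Osmr of the 9 was called (higher), where 27.8% of all genes were called and 13.5% were higher. In SNL plus UNC0638 against Sham, 6 of the 9 were higher and none lower, where 51.5% of all genes were called and 25.5% were higher. The groups of this last comparison did not overlap for 7 of the 9, beside 48.4% of all genes. The comparisons share groups, so that their results are not independent. Il6 and Lif reached the filter only through ligated libraries. Their place in the counts, median and non-overlap against Sham follows in part from their being tested.

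**Figure D1:**
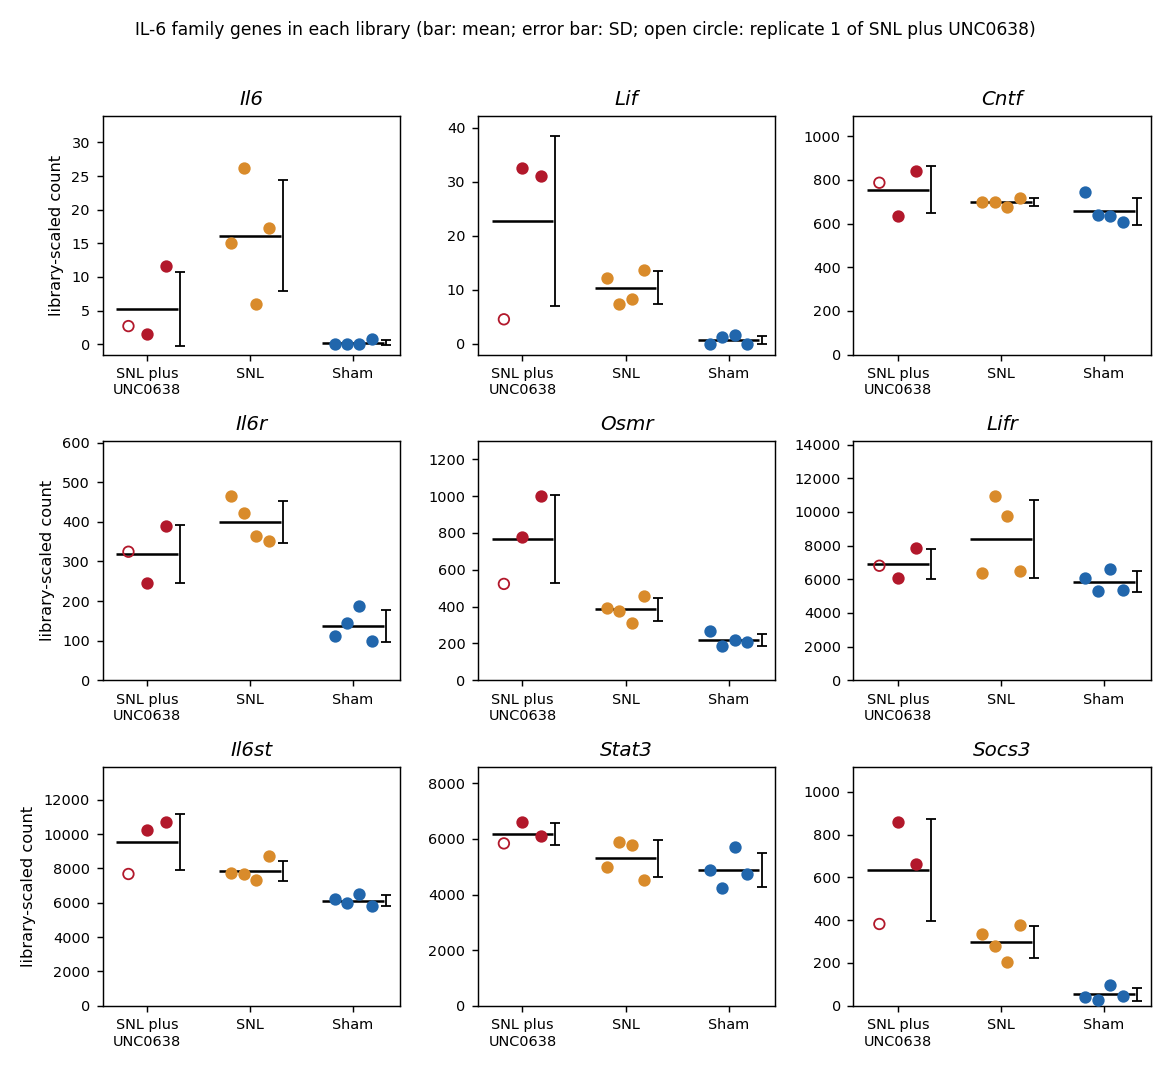
Scaled counts (vertical axis, linear) of the 9 detected genes in each library, with group means as bars and SD as error bars (n = 3, 4 and 4). SNL plus UNC0638 replicate 1, drawn as an open circle, holds the lowest value of its group for Lif, Osmr, Il6st, Stat3 and Socs3.

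Il6, the founding ligand of the family, was almost undetected without ligation. It stood at 2.69, 1.55 and 11.6 scaled counts in SNL plus UNC0638 replicates 1 to 3, at 15.05, 26.1, 6.01 and 17.3 in SNL replicates 1 to 4, and at 0, 0, 0 and 0.769 in Sham replicates 1 to 4. Every ligated library lay above every Sham library, and the highest SNL plus UNC0638 library lay among the SNL libraries. These values rest on few reads, an estimated 13, 104 and 1 in the SNL plus UNC0638, SNL and Sham groups.

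The rise of Il6 in SNL over Sham passed the test (log2 fold change 3.74, SE 0.57, adjusted p = 0.000382). As a ratio of reads per read sequenced, Il6 was 67.3 times as frequent in SNL (95% exact interval 11.8 to 2684, counting error only, over pooled libraries). SNL plus UNC0638 averaged 5.28 ± 5.51 scaled counts, against 16.1 ± 8.28 in SNL (SD, n = 3 and 4). This difference was not called (log2 fold change -1.65, SE 0.62, adjusted p = 0.0658). Omitting SNL replicate 3 gave an adjusted p of 0.0280, and omitting SNL plus UNC0638 replicate 3 gave 0.0205. That replicate had the highest Il6 of its group. Over 22 alternatives its adjusted p ran from 0.0205 to 0.449. Against Sham, Il6 was higher in SNL plus UNC0638 (log2 fold change 2.09, SE 0.62, adjusted p = 0.0147), a call lost without SNL plus UNC0638 replicate 3 (adjusted p = 0.0772). Since Il6 reached the filter only through its ligated libraries, its difference from Sham follows in part from its being tested at all.

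The start region of Il6 is shown because this gene had the highest log2 fold change of the 9 in SNL against Sham. It lies at chr4:5894526-5894825 on the minus strand of build GRCr8, a later build than the data (RefSeq), and runs from 250 bases before to 50 bases after the annotated start. Capitals mark the matches to textbook elements of this promoter: TGACGTCA (cyclic AMP response element, bases 89 to 96 of the window), TTNNGCAA (C/EBP, bases 99 to 106) and the NF-kappaB element (bases 183 to 192).
Il6: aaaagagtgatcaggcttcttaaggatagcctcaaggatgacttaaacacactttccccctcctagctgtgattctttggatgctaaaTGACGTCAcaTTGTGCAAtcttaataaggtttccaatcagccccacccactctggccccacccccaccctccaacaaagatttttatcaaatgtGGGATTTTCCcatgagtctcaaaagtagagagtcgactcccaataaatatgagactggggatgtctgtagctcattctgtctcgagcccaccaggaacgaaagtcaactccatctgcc
The matches do not overlap each other. Of 33469 promoters of this length in the table, 1.83% hold the first, 10.6% the second and 5.0% the third on either strand. A match is a description of the letters and not a binding site.

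Windows were found for 8 of the 10 genes (not Lif and Cntfr). The STAT element TTCNNNGAA, which 8.87% of all promoters hold, was in none of the 8 windows, Socs3 and Stat3 included. The windows reach only 250 bases before the annotated start, and 8 windows are few at such a share. Their lack of a match does not show that these genes lack the element, since sequence outside the windows was not searched. The AP-1 element TGANTCA, which 7.33% hold, was in the windows of Cntf and Osmr.

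Lif, a ligand made by injured nerve and known to act on sensory neurons, followed another pattern within the UNC0638 group. It stood at 4.48, 32.5 and 30.96 scaled counts in SNL plus UNC0638 replicates 1 to 3, at 12.2, 7.29, 8.26 and 13.7 in SNL replicates 1 to 4, and at 0, 1.14, 1.56 and 0 in Sham replicates 1 to 4. No ligated library overlapped with Sham. SNL plus UNC0638 replicates 2 and 3 lay above all SNL libraries and replicate 1 below all of them.

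Lif rose in SNL over Sham (log2 fold change 2.85, SE 0.59, adjusted p = 0.00225), with an estimated 56 reads in SNL and 2 in Sham. The ratio of reads per read sequenced was 18.1 (95% exact interval 4.79 to 153, counting error only). It also was higher in SNL plus UNC0638 than in Sham by 3.56 on the log2 scale (SE 0.64, adjusted p = 0.00100), where omitting replicate 1 gave 4.42 (SE 0.51). Like Il6, it reached the filter through its ligated libraries. SNL plus UNC0638 averaged 22.6 ± 15.7 against 10.4 ± 3.07 in SNL (SD, n = 3 and 4), a difference that was not called (log2 fold change 0.71, SE 0.64, adjusted p = 0.419, 95% interval -0.69 to 2.103). Omitting SNL plus UNC0638 replicate 1 gave 1.57 (SE 0.51, adjusted p = 0.0492), a call. Lif reached 10 only in SNL replicates 1 and 4 and SNL plus UNC0638 replicates 2 and 3. Without the SNL plus UNC0638 libraries it would not have been tested. Its difference from SNL, that call included, therefore follows in part from its being tested.

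Cntf, the ciliary neurotrophic factor gene, differed little between groups. It stood at 787, 634 and 842 scaled counts in SNL plus UNC0638 replicates 1 to 3, at 699, 701, 675 and 718 in SNL replicates 1 to 4, and at 746, 638, 636 and 606 in Sham replicates 1 to 4. The groups overlapped in every comparison. In SNL against Sham its log2 fold change was 0.09 (SE 0.11, 95% interval -0.15 to 0.34, adjusted p = 0.511). With UNC0638 it was 0.10 against SNL (SE 0.12, 95% interval -0.16 to 0.36, adjusted p = 0.535). Against Sham the log2 fold change of SNL plus UNC0638 was 0.20 (SE 0.12, adjusted p = 0.190). The spread within SNL was small, with a coefficient of variation of 2.52%, against 9.35% in Sham and 14.3% in SNL plus UNC0638.

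Il6r, the chain that binds interleukin-6, rose with ligation in both ligated groups. It stood at 325, 244 and 391 scaled counts in SNL plus UNC0638 replicates 1 to 3, at 465, 422, 364 and 351 in SNL replicates 1 to 4, and at 111, 145, 189 and 98.4 in Sham replicates 1 to 4. All ligated libraries lay above all Sham libraries, and the ligated groups overlapped. The log2 fold change of SNL over Sham was 1.59 (SE 0.21, adjusted p = 0.000178), and that of SNL plus UNC0638 over Sham was 1.25 (SE 0.23, adjusted p = 0.00104). SNL plus UNC0638 and SNL differed by -0.34 (SE 0.23, 95% interval -0.83 to 0.15, adjusted p = 0.269). Il6r is known to be expressed by macrophages. The 7 macrophage markers summed to 3195 to 4750 in SNL plus UNC0638 and 3303 to 4602 in SNL. In Sham they summed to 1003 to 2127, and 6 of the 7 were called higher in SNL than in Sham. They did not move alike with UNC0638, where 1 was called higher than in SNL and 0 lower. Cd163 (294 ± 113 against 111 ± 20.4), Itgam, Cd68 and Mrc1 averaged more than in SNL. Csf1r (1509 ± 269 against 1943 ± 198) and Cx3cr1 averaged less, and Aif1 was level (SD, n = 3 and 4). The part of these markers in the rise of Il6r was not tested. More cells of a type and more RNA per cell cannot be told apart in whole ganglia, for this gene and those that follow.

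Osmr, the oncostatin M receptor gene, was the 1 member called in all 3 comparisons. It stood at 523, 778 and 998 scaled counts in SNL plus UNC0638 replicates 1 to 3, at 394, 375, 310 and 458 in SNL replicates 1 to 4, and at 266, 186, 217 and 207 in Sham replicates 1 to 4. The 3 groups did not overlap, with Sham lowest and SNL plus UNC0638 highest. Groups without overlap made up 37.6% of all genes in SNL plus UNC0638 against SNL and 43.3% in SNL against Sham.

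SNL plus UNC0638 averaged 766 ± 238 against 384 ± 60.8 in SNL (SD, n = 3 and 4; log2 fold change 0.96, SE 0.21, adjusted p = 0.00738). The log2 fold change was 1.21 (SE 0.19, adjusted p = 0.00308) when replicate 1 of SNL plus UNC0638 was omitted. Osmr rose by 0.81 on the log2 scale in SNL over Sham (SE 0.19, adjusted p = 0.00527) and by 1.77 in SNL plus UNC0638 over Sham (SE 0.21, adjusted p = 0.000139). These calls held in all 23 alternatives, with adjusted p for SNL plus UNC0638 against SNL from 0.000371 to 0.0309. Osmr is known to be expressed by fibroblasts among other cells. The sum of 5 fibroblast markers was 25970 to 55676 in SNL plus UNC0638, 55709 to 112171 in SNL and 16503 to 23725 in Sham. Of the 5, Col1a1, Dcn and Lum were lower in SNL plus UNC0638 than in SNL, Col1a2 was not called, and Pdgfra averaged 2386 ± 1047 in SNL plus UNC0638 against 1792 ± 441 in SNL (SD, n = 3 and 4; adjusted p = 0.459). Their part in the differences of Osmr was not tested.

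The start region of Osmr is shown because it is the receptor gene called in all 3 comparisons. It lies at chr2:57688512-57688811 on the minus strand of GRCr8 (RefSeq), with the AP-1 match at bases 218 to 224 of the window in capitals.
Osmr: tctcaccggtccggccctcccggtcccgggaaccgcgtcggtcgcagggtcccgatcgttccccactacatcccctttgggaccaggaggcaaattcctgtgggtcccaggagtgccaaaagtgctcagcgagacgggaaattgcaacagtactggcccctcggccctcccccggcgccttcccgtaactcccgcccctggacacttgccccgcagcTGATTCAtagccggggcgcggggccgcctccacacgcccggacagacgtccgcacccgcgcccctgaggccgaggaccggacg
The share of G and C was 69.3% in this window and 46% in that of Il6.

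Lifr, the chain for LIF and CNTF, was the least certain of the calls. It stood at 6801, 6089 and 7831 scaled counts in SNL plus UNC0638 replicates 1 to 3, at 6382, 10925, 9729 and 6471 in SNL replicates 1 to 4, and at 6091, 5319, 6616 and 5339 in Sham replicates 1 to 4. SNL replicates 2 and 3 lay above all other libraries, and SNL replicates 1 and 4 lay within the range of Sham. The rise in SNL over Sham (log2 fold change 0.48, SE 0.18, adjusted p = 0.0441) did not last in 8 of the 11 fits that omit 1 library (adjusted p 0.0506 to 0.129). The 3 fits that kept it were those without Sham replicate 3, SNL replicate 1 or SNL replicate 4. SNL plus UNC0638 differed by -0.24 from SNL (SE 0.20, 95% interval -0.67 to 0.18, adjusted p = 0.359) and by 0.24 from Sham (SE 0.20, adjusted p = 0.321).

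Il6st, which encodes the shared chain gp130, was modestly higher in both ligated groups. It stood at 7675, 10260.2 and 10704 scaled counts in SNL plus UNC0638 replicates 1 to 3, at 7759, 7659, 7312 and 8700.03 in SNL replicates 1 to 4, and at 6223, 5974, 6513 and 5800.4 in Sham replicates 1 to 4. Ligated libraries did not overlap with Sham. SNL plus UNC0638 replicates 2 and 3 lay above all SNL libraries, and replicate 1 lay among them.

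The log2 fold change of Il6st in SNL over Sham was 0.36 (SE 0.12, adjusted p = 0.0307), 1.28-fold between means. Omitting Sham replicate 1, 2 or 4 or SNL replicate 1, 2 or 4 ended that call (6 of 11 such fits, adjusted p 0.0546 to 0.0855). In SNL plus UNC0638 it was 0.63 over Sham (SE 0.13, adjusted p = 0.00242), which all 23 alternatives called. Against SNL the difference of 0.27 (SE 0.13, adjusted p = 0.143) was called without SNL plus UNC0638 replicate 1 (0.42, SE 0.12, adjusted p = 0.0298).

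Cntfr, the chain for CNTF that is known from sensory neurons, was listed at 0 in all 11 libraries. A listed 0 does not show absence in this table, because Mcl1, a survival gene that most cells use, was also listed at 0 in every library, as were 1970 genes in all. Mcl1 was named after its values were seen.

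**Figure D2:**
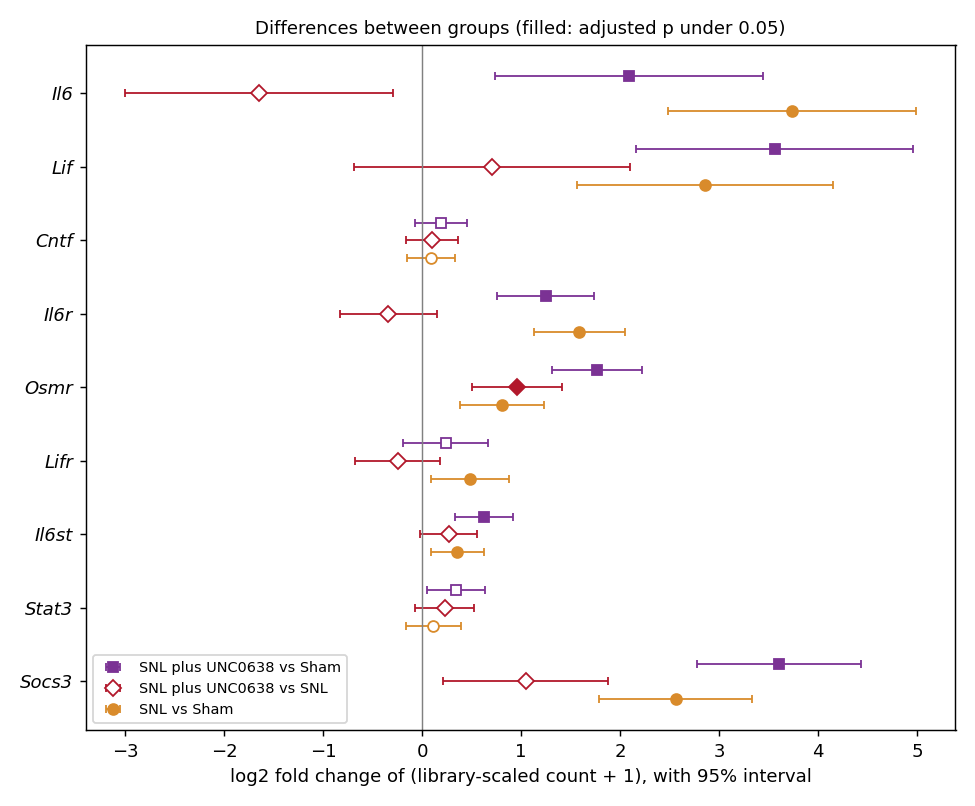
Log2 fold changes of scaled count + 1 (horizontal axis) with 95% intervals from limma for the 9 tested genes in 3 comparisons, filled where the adjusted p was under 0.05. Osmr is filled in each comparison, Cntf and Stat3 in none, and the interval of Il6 in SNL plus UNC0638 against SNL runs from -3.00 to -0.30.

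Stat3, the transcription factor gene downstream of all these receptors, was nearly level in RNA after ligation. It stood at 5841, 6612 and 6109 scaled counts in SNL plus UNC0638 replicates 1 to 3, at 4983, 5889, 5801 and 4529 in SNL replicates 1 to 4, and at 4887, 4244, 5712 and 4734 in Sham replicates 1 to 4. SNL overlapped with Sham over most of its range. The SNL plus UNC0638 libraries lay above all Sham libraries, and the lowest of them lay below the highest SNL library.

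In SNL against Sham its log2 fold change was 0.11 (SE 0.13, 95% interval -0.16 to 0.39, adjusted p = 0.472). SNL plus UNC0638 averaged 6188 ± 391 against 4895 ± 610 in Sham (SD, n = 3 and 4), a log2 fold change of 0.34 (SE 0.14) with an adjusted p of 0.0510, just outside the threshold. It was called without Sham replicate 3 (0.42, adjusted p = 0.0157) or without SNL replicate 4 (adjusted p = 0.0457), and adjusted p ran from 0.000292 to 0.389 over 23 alternatives. Against SNL, SNL plus UNC0638 differed by 0.23 (SE 0.14, 95% interval -0.07 to 0.53, adjusted p = 0.216).

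Socs3, the feedback inhibitor, rose steeply. It stood at 382, 859 and 662 scaled counts in SNL plus UNC0638 replicates 1 to 3, at 334, 278, 204 and 376 in SNL replicates 1 to 4, and at 43.1, 28.4, 96.6 and 46.1 in Sham replicates 1 to 4. The 3 groups did not overlap. The lowest SNL plus UNC0638 library, replicate 1, was close to the highest SNL library. The highest Sham value was in Sham replicate 3, which stood apart in other genes as well.

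SNL averaged 298 ± 74.2 against 53.6 ± 29.7 in Sham (SD, n = 4 each), 5.56-fold (log2 fold change 2.56, SE 0.35, adjusted p = 0.000223). SNL plus UNC0638 averaged 634 ± 239 (SD, n = 3), 11.8-fold over Sham (log2 fold change 3.61, SE 0.38, adjusted p = 8.90e-05). Between the ligated groups the log2 fold change was 1.05 (SE 0.38, 95% interval 0.21 to 1.88) and missed the threshold (adjusted p = 0.0592). That difference was called without Sham replicate 2 (adjusted p = 0.0457), Sham replicate 3 (adjusted p = 0.0188) or SNL plus UNC0638 replicate 1 (1.37, SE 0.40, adjusted p = 0.0352). Over 23 alternatives its adjusted p ran from 0.000645 to 0.298, with 6 calls.

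Other ligands, receptor chains and sheddases of the family gave 4 higher and 2 lower of 7 tested genes in SNL against Sham (all genes 24.8% higher, 23.4% lower), with a median log2 fold change of 0.52. Clcf1, a ligand gene of the family, averaged 38.96 ± 8.95 in SNL against 8.78 ± 2.39 in Sham (log2 fold change 2.04, SE 0.33, adjusted p = 0.000539). Like Il6 and Lif, it reached the filter only through ligated libraries, so that its difference from Sham follows in part from its being tested. Adam17, a protease that sheds Il6r from the cell surface, rose to 1886 ± 376 in SNL, against 813 ± 102 in Sham (log2 fold change 1.199, adjusted p = 0.000301). Adam10, a second sheddase, rose by 0.52 on the log2 scale (adjusted p = 0.00172). Errors in this paragraph are SD with n = 4 each.

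Il31ra, which pairs with Osmr to form the receptor of the itch cytokine interleukin-31, went the other way. It stood at 1081, 649.8 and 473 scaled counts in SNL plus UNC0638 replicates 1 to 3, at 78.1, 204, 381 and 146 in SNL replicates 1 to 4, and at 821 to 1290 in Sham. Every SNL library lay below every library of the other groups. It fell in SNL by 2.51 on the log2 scale (SE 0.40, adjusted p = 0.000517) and was higher in SNL plus UNC0638 than in SNL (log2 fold change 1.997, SE 0.43, adjusted p = 0.00732). Il31ra is known from a class of nociceptors. The sum of 6 sensory neuron markers was 72344 to 122220 in SNL plus UNC0638, 76197 to 116830 in SNL and 167979 to 230545 in Sham. The 6 did not move alike with UNC0638. Scn10a, a sodium channel gene of nociceptors, moved as Il31ra did, at 9527 ± 3726 in SNL plus UNC0638, 1744 ± 1408 in SNL and 11262 ± 2454 in Sham (SD, n = 3, 4 and 4; log2 fold change of SNL plus UNC0638 over SNL 2.68, adjusted p = 0.00257). Prph (log2 fold change -0.76) and Uchl1 (-0.86) were lower in SNL plus UNC0638 than in SNL (adjusted p = 0.00143 and 0.00316), while Isl1 and Nefh were among those not called. The part of these markers in the differences of Il31ra was not tested. Il11ra1, the interleukin-11 receptor chain, fell by 0.38 in SNL (SE 0.11, adjusted p = 0.0157), a call lost without SNL replicate 2 (adjusted p = 0.0526).

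With UNC0638, 1 of these 7 genes (Il31ra) was higher and 1 (Adam17) lower than in SNL, with a median of 0.02. That share is near the 27.8% called among all genes. Adam17 averaged 1022 ± 219 in SNL plus UNC0638 against 1886 ± 376 in SNL (SD, n = 3 and 4; log2 fold change -0.89, SE 0.19, adjusted p = 0.00661). Clcf1 averaged 82.7 ± 40.4 in SNL plus UNC0638 against 38.96 ± 8.95 in SNL, a log2 fold change of 0.97 (SE 0.36, adjusted p = 0.0632). Omitting replicate 1 of SNL plus UNC0638 made it a call (adjusted p = 0.0181). In SNL plus UNC0638 against Sham, 3 were higher (Clcf1 and Adam10 among them) and 1 lower (Il11ra1), with a median of 0.32 (all genes 25.5% higher, 26.0% lower). Omitting Sham replicate 1, 2 or 4 or SNL plus UNC0638 replicate 2 or 3 ended the call of Adam10 (adjusted p 0.0658 to 0.139). That of Il11ra1 was lost without Sham replicate 4 or SNL plus UNC0638 replicate 3. Ctf1, the cardiotrophin gene, averaged 19.4 ± 4.43 in SNL plus UNC0638, 17.1 ± 3.32 in SNL and 13.3 ± 4.68 in Sham, and was not called.

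The remaining genes of the list were too low to be tested and are given as estimated reads. Osm, the gene of oncostatin M, had 5, 11 and 13 reads in SNL plus UNC0638 replicates 1 to 3, 2, 8, 1 and 6 in SNL replicates 1 to 4, and 1, 2, 1 and 2 in Sham replicates 1 to 4. Per read sequenced, it was 4.16 times as frequent in SNL plus UNC0638 as in SNL (95% exact interval 2.21 to 8.08, counting error only, so not a test between groups). Il11 had 19, 43 and 3 reads in the SNL plus UNC0638, SNL and Sham groups. Il27ra stood at 7.18 to 15.5 scaled counts in SNL plus UNC0638, 5.64 to 7.72 in SNL and 1.14 to 7.79 in Sham. Ebi3 was listed at 0 throughout, and Il27 was not analysed here.

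Osm is known as a product of neutrophils and macrophages. The sum of 7 neutrophil markers was 578 to 769 in SNL plus UNC0638, 92.4 to 219 in SNL and 29.97 to 206 in Sham. Most of that sum in SNL plus UNC0638 came from Csf3r (453.5 ± 81.4, against 45.4 ± 10.1 in SNL), S100a8 and S100a9. The granule genes Camp, Np4 and Mpo, too low to be tested, overlapped between all groups. Camp stood at 5.38 to 6.45 scaled counts in SNL plus UNC0638, 5.26 to 12.2 in SNL and 2.31 to 12.5 in Sham. Np4 stood at 3.59 to 4.64 in SNL plus UNC0638, 0.751 to 23.5 in SNL and 0.769 to 9.74 in Sham, and Mpo at no more than 3.09 in any library. The part of these genes in the differences of Osm, Osmr and Socs3 was not tested.

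**Figure D3:**
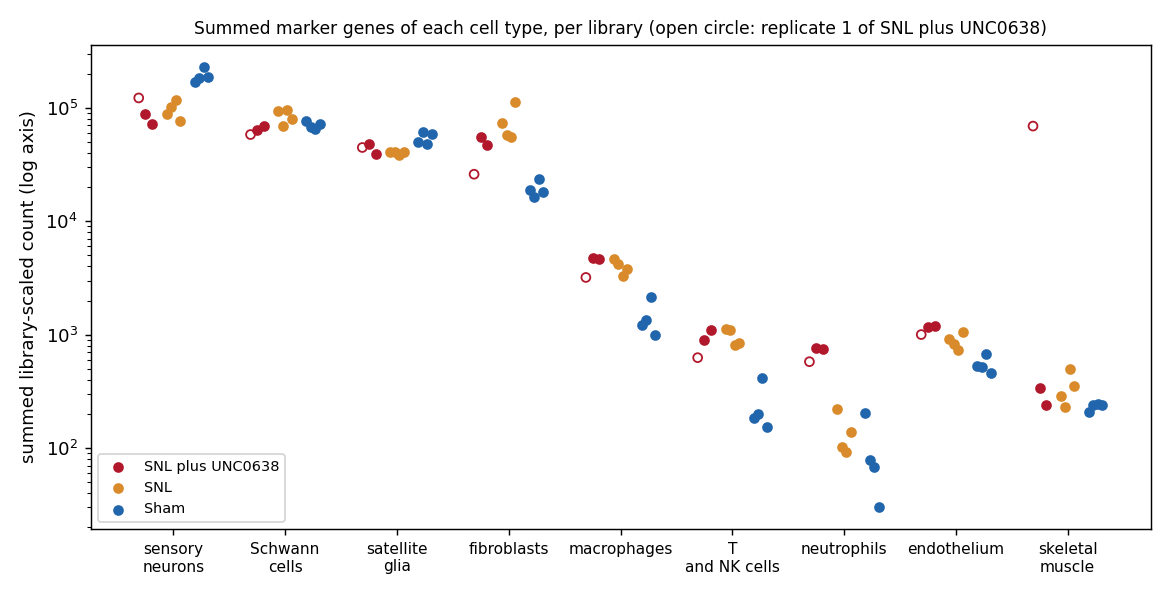
Summed scaled counts of marker genes of 9 cell types (log axis) in each library, by group. The skeletal muscle sum of SNL plus UNC0638 replicate 1 (open circle) was 69009, and the neutrophil sums of that group lay above those of SNL and Sham.

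Kinases, STATs and brakes of the pathway gave 13 higher and 1 lower of 26 tested genes in SNL against Sham, with a median of 0.34. Among all genes 48.2% were called, 24.8% higher and 23.4% lower. The smallest p-values belonged to Ptpn6, the phosphatase SHP-1 of blood cells (296 ± 60.9 in SNL against 85.8 ± 15.9 in Sham, log2 fold change 1.77), Stat4 (63.2 ± 16.01 against 7.13 ± 3.44, 3.06), Stat5a (409.9 ± 53.6 against 189 ± 24.2, 1.11) and Jak2, a kinase bound to gp130 (1700 ± 265 against 693 ± 80.6, 1.29). Their adjusted p lay between 0.000111 and 0.000301. Stat4 reached the filter only through ligated libraries, with the same limit as Clcf1. The macrophage sums given above were also higher in SNL than in Sham, and their part in the rise of Ptpn6 was not tested.

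In SNL plus UNC0638 against SNL, 5 of the 26 were higher and 1 lower, with a median of 0.07, where 13.5% of all genes were higher and 14.3% lower. The share called among the 26 was thus not above the 27.8% of all genes. Ptpn1, a phosphatase that acts on JAK kinases, averaged 579 ± 130 in SNL plus UNC0638 against 305 ± 32.4 in SNL (log2 fold change 0.90, SE 0.19, adjusted p = 0.00601). Tyk2 (0.51, adjusted p = 0.0148) and Jak3 (1.33, adjusted p = 0.0182) were higher too. The Tyk2 call was lost without SNL plus UNC0638 replicate 2 (adjusted p = 0.0566), and that of Jak3 without replicate 2 or 3 of that group (adjusted p 0.0783 and 0.0597). Against Sham, 13 were higher and 1 lower in SNL plus UNC0638, with a median of 0.38 (all genes 25.5% higher, 26.0% lower). Ptpn1 (1.82), Ptpn6 (2.02) and Tyk2 (0.99) were among the genes of smallest p-value there.

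Textbook targets of STAT3 gave 14 higher and 1 lower of 19 tested genes in SNL against Sham, with a median of 1.54, where 24.8% of all genes were higher and 23.4% lower. The smallest p-values belonged to the protease inhibitor gene Timp1 (948 ± 145 in SNL against 276 ± 37.97 in Sham), A2m (4996 ± 624 against 1106 ± 219), the immediate early gene Fos (431 ± 123 against 72.9 ± 23.2) and the glial filament gene Gfap (2612 ± 582 against 265 ± 119). Their log2 fold changes were 1.77, 2.19, 2.55 and 3.36, with adjusted p from 0.000101 to 0.000134. The 1 lower gene was Vegfa, a growth factor of blood vessels, at 395 ± 45.6 in SNL against 612 ± 27.7 in Sham. Serpina3n, at no more than 6.23 scaled counts in Sham, reached the filter only through ligated libraries. Its place in the counts against Sham, for both ligated groups, has the same limit as Clcf1. Lbp, with a median of 9.32 scaled counts in Sham, also needed ligated libraries to reach the filter. It counts among the genes higher in SNL plus UNC0638 than in Sham under that same limit. All these genes answer to other factors as well, and STAT3 binding was not measured.

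With UNC0638, 4 of the 19 targets were higher and 3 lower than in SNL, with a median of 0.23, where 13.5% of all genes were higher and 14.3% lower. Vegfa averaged 871 ± 118 in SNL plus UNC0638 against 395 ± 45.6 in SNL (log2 fold change 1.14, SE 0.13, adjusted p = 0.000339). Cebpb, a transcription factor gene of the acute phase response, averaged 352 ± 87.1 against 113 ± 22.2 (log2 fold change 1.63, SE 0.26, adjusted p = 0.00166). Bcl3 was higher as well (1.22, adjusted p = 0.0273), a call that ended when SNL replicate 1, 2 or 4 or SNL plus UNC0638 replicate 2 was omitted (adjusted p 0.0511 to 0.115). Timp1 was lower (590.1 ± 98.6 in SNL plus UNC0638 against 948 ± 145 in SNL, log2 fold change -0.68, adjusted p = 0.0116). The calls of Pim1 (higher), Ccnd1 and Reg3b (both lower) were lost in 6, 5 and 7 of the 11 fits that omit 1 library. Those of Vegfa, Cebpb and Timp1 held in all 11. Against Sham, 16 were higher and none lower in SNL plus UNC0638, with a median of 2.06 (all genes 25.5% higher, 26.0% lower). A2m (2.21), Gfap (3.72), Pim1 (1.78) and Junb (2.08) led by p-value.

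**Figure D4:**
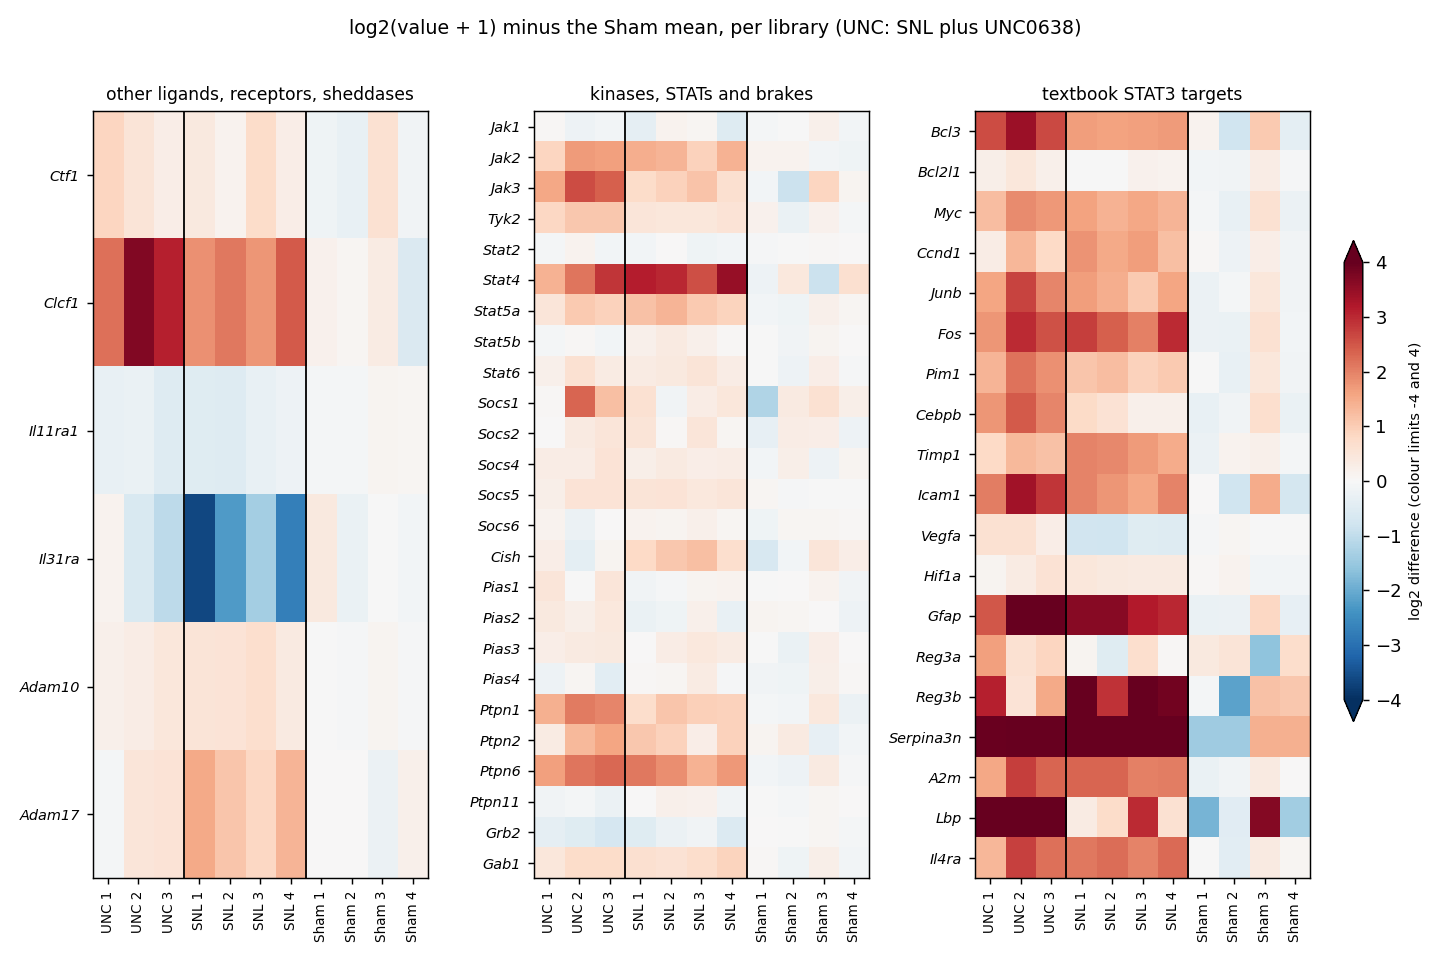
Level of tested pathway genes in each library as log2(scaled count + 1) minus the Sham mean, in colour from -4 to 4 (stronger values are drawn at the end colours). Il31ra is blue in the SNL columns and paler in the SNL plus UNC0638 columns, and Lbp is red in all SNL plus UNC0638 columns and in replicate 3 of SNL and of Sham.

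The genes nearest to 3 members in pattern were found by the root mean square difference of centred log2(scaled count + 1) over the 11 libraries. Nearest to Stat3 were Sel1l (0.065), Snrnp200 (0.0697), G3bp1 (0.0748), Bbx (0.0789) and Wdr91 (0.0814). Sel1l, for example, averaged 2452 ± 116 in SNL plus UNC0638, 2115 ± 234 in SNL and 2030.1 ± 292 in Sham. Nearest to Cntf were Rbl2, Mettl10, Zfp799, Aff4 and Tnpo1 (0.0801 to 0.0918), genes that also differed little between groups. Nearest to Lif were the Fc receptor gene Fcgr2b (0.34), Col27a1 (0.47), Vcan (0.49), Gfap (0.49) and Runx2 (0.50). Like Lif, Fcgr2b was lowest among its group in SNL plus UNC0638 replicate 1, at 174 scaled counts against a group mean of 458 ± 248 (SD, n = 3), and averaged 215 ± 57.3 in SNL and 35.7 ± 18.2 in Sham.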

How the data were processed

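Stranded total RNA libraries, depleted of ribosomal RNA, were sequenced as single-end reads of 50 bases, per the labels, with RNA from either of a pair of extraction reagents whose assignment is not given. Reads were aligned to rn4 with TopHat2 2.0.9, and Cuffdiff 2.1.1 is named, per the submitters' processing notes. The sources used here do not give the annotation or how strand and shared reads were treated. Each deposited signal value is a count per gene after the authors applied 1 scaling factor per library. In each library 98.9% to 99.2% of low values were whole multiples of a step (within 0.01), taken as 1 read. Tests for raw counts had been planned and were not run, because the values are not counts. Sdc2 and Pcdhgc5, at 0 throughout a single group, were dropped once seen to be so. Genes that reached 10 in 3 or more libraries were fitted with limma 3.58.1 (R 4.3.3, statmod 1.5.0), on log2(value + 1) with a mean per group, eBayes trend and robust, two-sided. The code was tested on simulated data. Intervals on reads are exact binomial and cover counting error only. Il4r was matched as Il4ra. Replicate numbers do not pair the samples.

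The members, lists and tests were chosen with earlier results of these data known. Named were all members, every detected family gene, the 4 called genes of smallest p per further list and comparison, and the 5 genes nearest to Stat3, Cntf and Lif. Some genes that this rule names are not reported here, but count in their lists. Alternatives were other scalings, pseudocounts of 0.5 and 5, filters, sample sets, voom, the replicate block, eBayes without robust estimates, a term for libraries that stand apart and single libraries left out.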

Additional observations from a re-analysis of the deposited data

Results flagged for a closer look

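In Sham, 1 library stood apart from the rest of its group for Il6: replicate 4 had 0.769 scaled counts where the other 3 were at 0. The value corresponds to 1 estimated read. It was the only flag among 18 groups of 4 libraries examined for the detected family genes. Chance gives about 1 in 20 for values that vary continuously. That rate does not hold where 3 of 4 libraries are at 0, since any single read then raises the flag.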

How the results depend on the processing

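No gene of the family changed direction under any alternative. In SNL against Sham the number of family genes called was 7, and 5 to 7 with single libraries left out. In SNL plus UNC0638 against Sham it was 6, and 5 to 7 with single libraries left out. With limma-voom on the estimated reads, these numbers against Sham were 8 for SNL and 9 for SNL plus UNC0638. In SNL plus UNC0638 against SNL the 1 call became 2 with only these groups in the fit, 5 with limma-voom on the estimated reads and 3 without replicate 3 of both Sham and SNL, and ran from 1 to 4 with single libraries left out. The voom fit replaces the deposited scaling by read totals and moved the median of all genes to 0.13 in this comparison and to 0.19 in SNL plus UNC0638 against Sham; its log2 fold change of Stat3 against Sham was 0.60. The other scalings moved medians by less than 0.1.

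Over all genes, SNL plus UNC0638 against SNL gave 3356 calls, 5346 without replicate 3 of both Sham and SNL, 1286 with a term that set these and all SNL plus UNC0638 libraries apart, and 2078 to 4466 with single libraries left out (2078 without SNL replicate 1, 2098 without SNL plus UNC0638 replicate 2). Under that term the pathway lists gave 6 calls, against 15 without it. Osmr was 1.11 higher (adjusted p = 0.0221), Socs3 0.81 (adjusted p = 0.298) and Stat3 0.04 (adjusted p = 0.881). Among the genes no longer called were Il31ra (1.44, adjusted p = 0.0834), Adam17 (-0.58, adjusted p = 0.0778) and Ptpn1 (0.68, adjusted p = 0.0683). Tyk2 (adjusted p = 0.0999), Jak3 (0.211), Bcl3 (0.274), Pim1 (0.213) and Reg3b (0.0575) also lost their calls under that term. The cause was not tested. Single libraries left out gave 10 to 18 calls in the lists. With the replicate number as a block there were 2126 calls over all genes in this comparison, 1 in the family, and Il6st in SNL against Sham missed the threshold (adjusted p = 0.0619). Same-numbered libraries did not correlate throughout (r -0.446 to 0.431), so the block follows a number only. Of the 615 refits of single family genes, 573 kept their side of the threshold, 20 lost and 22 gained a call. The planned count-model tests were not run, since the values are not counts, and a filter of 50 left no value for Il6 and Lif. The depth of Il6, Lif and Osm, a few reads per library, limits what can be said of them. A pseudocount of 5 ended the Il6 call in SNL plus UNC0638 against Sham (adjusted p = 0.0758).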
